A study of Arabidopsis thaliana with 22 samples.

Results

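Writers, readers and erasers of H3K27me3 in Arabidopsis thaliana, encoded by 10 loci, were followed across 16 ChIP-seq libraries. The 10 loci, of 27444 protein-coding genes on the 5 nuclear chromosomes, were chosen by name, with earlier results of these data known. They are CLF (AT2G23380), SWN (AT4G02020), MEA (AT1G02580), FIE (AT3G20740), EMF2 (AT5G51230), VRN2 (AT4G16845), FIS2 (AT2G35670), LHP1 (AT5G17690, listed as TFL2 in the RefSeq gene table), REF6 (AT3G48430) and ELF6 (AT5G04240). Polycomb repressive complex 2 (PRC2) places H3K27me3, a histone mark that keeps genes silent in a heritable way. Its catalytic subunit is CLF, SWN or MEA, and it is joined by FIE and by one of the zinc finger proteins EMF2, VRN2 or FIS2. LHP1 binds the mark, and the JmjC proteins REF6 and ELF6 remove it. CLF, SWN, EMF2 and VRN2 act in the plant body, in leaf and flower identity and in the timing of flowering, whereas MEA and FIS2 act in the female gametophyte and the endosperm of the seed and are imprinted there. H3K4me3, the second mark measured, lies over the start of transcribed genes.

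The study followed both marks during early flower development in 4 stages, with 2 replicates per stage and mark. All plants had the Landsberg erecta background. Leaf samples were rosette leaves taken from the wild type in flower, and inflorescence samples were whole main inflorescences of the wild type without flowers older than stage 12. Apex t0 samples were the cauliflower-like heads of ap1 cal 35S::AP1-GR plants, and apex t2 samples were the same heads 2 days after 10 µM dexamethasone. In these plants AP1 fused to the glucocorticoid receptor is driven by the constitutive 35S promoter, and dexamethasone lets the fusion enter the nucleus, so flower formation starts together in heads that lack normal flowers. The apices therefore differ from leaf and inflorescence in genotype as well as in tissue, and the 2 wild-type tissues used 10 µg of chromatin per reaction against 15 µg for the apices. Sonication, antibody lot, sequencer and library kit also differed between replicates 1 and 2, and several ChIP reactions were pooled for replicate 2.

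The deposited tables list islands, which are stretches enriched over an input control, called in each library on its own. Island reads ranged from 6635471 to 23673881 per library for H3K4me3 and from 3779918 to 19379225 for H3K27me3, and replicate 1 was the shallower in every stage. The 2 shallowest H3K27me3 libraries were inflorescence replicate 1 (3779918) and leaf replicate 1 (4995796), which also shared 1 control. Leaf and inflorescence shared a control within each replicate and mark, and so did apex t0 and t2, which makes 8 such pairs. The tissue labels were checked with H3K4me3 on marker genes. Of 6 meristem markers, 5 (STM, KNAT1, KNAT2, ANT and CUC2) were higher in apex t0 than in leaf, and of 6 leaf markers 3 (RBCS1B, LHCB2.1 and RCA) were lower (limma, adjusted p under 0.05). In inflorescence against leaf, 4 of the 6 meristem markers (STM, KNAT1, KNAT2 and ANT) were higher, and CUC2 and LFY had a log2 difference of 0.00. Of the 6 leaf markers 0 were lower, so these did not set inflorescence apart from leaf.

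H3K4me3 and H3K27me3 split the 10 loci into a group of 8 and a pair. CLF, SWN, FIE, EMF2, VRN2, LHP1, REF6 and ELF6 carried an H3K4me3 island over at least 200 bp of the gene body in all 8 H3K4me3 libraries, so 8 of 10 loci were marked in both replicates of each of the 4 stages. Among all 27444 genes, 53.4% were marked by H3K4me3 in all 8 libraries, and between 57% (leaf) and 60.4% (apex t2) in both replicates of a stage. MEA and FIS2 had no H3K4me3 island in any library and carried an H3K27me3 island in all 8 H3K27me3 libraries, as 21.4% of all genes did. H3K27me3 in all 8 libraries with H3K4me3 in none was the state of 14.5% of all genes. The reverse state, H3K4me3 in all 8 libraries with no H3K27me3 in any, held for 6 of the 10 loci (SWN, EMF2, VRN2, LHP1, REF6 and ELF6) and for 45.5% of all genes. An absent island means a signal below the authors' calling threshold, which is not a measured zero. In whole tissue, fewer cells with a mark and less of the mark per cell cannot be told apart.

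**Figure D1:**
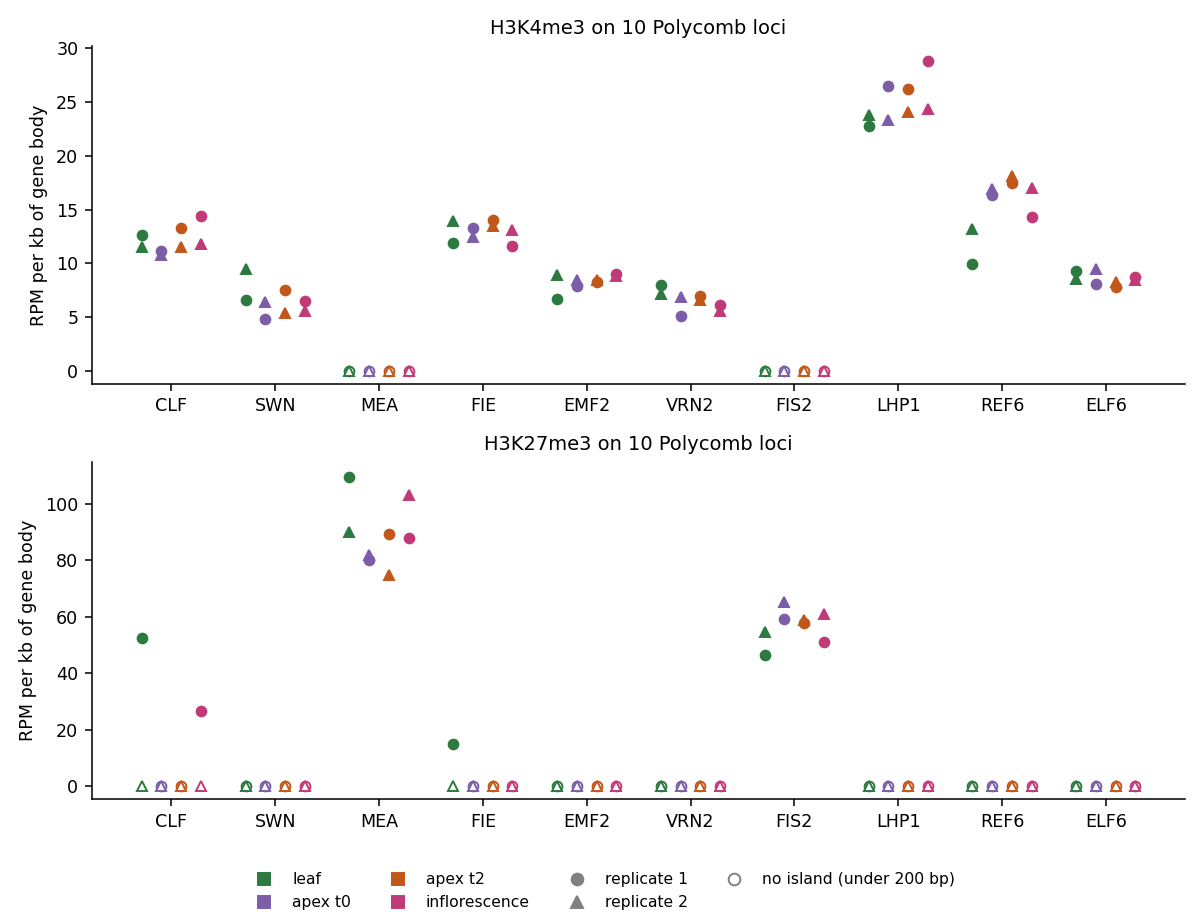
Level of H3K4me3 (top) and H3K27me3 (bottom) on the 10 loci in each library, as RPM per kb of gene body on a linear axis. Colours give the stage, circles are replicate 1, triangles replicate 2, and open symbols at 0 are libraries with no island over at least 200 bp of the body. MEA and FIS2 have only H3K27me3, with 74.7 to 109 and 46.4 to 65.4 RPM per kb, and the other 8 loci have H3K4me3 in all 8 libraries.

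A gene's level was the number of island reads falling on its body per 1000000 island reads on tested genes (RPM), scaled between libraries and, where genes are set side by side, divided by the length of the body in kb. The order of libraries between stages is given for each locus as description only. With 2 libraries per stage such orders are common. In H3K4me3, both apex t0 libraries were above both leaf libraries in 22.6% of all genes tested and below in 24.6%. In H3K27me3 these shares were 29.9% and 24.1%. For inflorescence above leaf in H3K4me3 the share was 18.3%. For the other orders no share over all genes was counted. Among the catalytic subunits, CLF, the methyltransferase best known for silencing floral homeotic genes in leaves, had H3K4me3 of 12.7 and 11.6 RPM per kb in leaf, 11.2 and 10.8 in apex t0, 13.3 and 11.6 in apex t2, and 14.4 and 11.8 in inflorescence (replicates 1 and 2). Its highest library was inflorescence replicate 1 and its lowest apex t0 replicate 2, and both apex t0 libraries lay just under the 6 others. The H3K4me3 island of CLF covered the lower-coordinate end of the gene and reached over the neighbour AT2G23370. It spanned chr2:9954401-9956200 (TAIR10) in 6 of the 8 libraries, and was 200 bp longer in apex t0 replicate 2 and in apex t2 replicate 1.

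SWN, a methyltransferase partly redundant with CLF, was at 6.61 and 9.43 RPM per kb of H3K4me3 in leaf, 4.79 and 6.43 in apex t0, 7.50 and 5.33 in apex t2, and 6.50 and 5.59 in inflorescence. Leaf replicate 2 stood highest and apex t0 replicate 1 lowest, and both apex t0 and both inflorescence libraries were below both leaf libraries. The bounds of the SWN island also differed between libraries. It began at position 886401 of chromosome 4 in both leaf libraries, in apex t2 replicate 1 and in inflorescence replicate 1. In both apex t0 libraries, apex t2 replicate 2 and inflorescence replicate 2 it began at 885801. Both starts lie outside the gene body, and the reads of an island were divided between body and flank by length. A separate island over the neighbour AT4G02030 began at 892001 in all 8 libraries, within 1 kb of SWN, with 351 reads in leaf replicate 1 beside 286 in the SWN island. With 1 kb on either side counted in, which takes in that island too, the SWN difference between apex t0 and leaf changed its sign (log2 difference 0.09 against -0.50 on the body alone), with adjusted p of 0.663 and 0.362.

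MEA, the catalytic subunit of the seed complex, was the most heavily H3K27me3-marked of the 10 loci. Its H3K27me3 level was 109 (replicate 1) and 89.9 (replicate 2) RPM per kb in leaf, 80.3 and 82.0 in apex t0, 89.3 and 74.7 in apex t2, and 88.1 and 103 in inflorescence, a mean of 89.6 ± 11.7 (SD, n = 8). Leaf replicate 1 and inflorescence replicate 2 were high, apex t2 replicate 2 was low, and the 4 apex libraries were below both leaf libraries, apex t2 replicate 1 by little. Both apex t0 libraries were also below both inflorescence libraries, and the other pairs of stages overlapped. The islands covered 100% of the MEA body in 6 libraries, 98.5% in apex t0 replicate 1 and 80.6% in inflorescence replicate 1, the shallowest library. Per kb covered, the MEA level was 109.5 and 89.9 RPM in leaf, 109.3 and 103.3 in inflorescence, and 74.7 to 89.3 in the 4 apex libraries. On that scale both inflorescence libraries were above all 4 apex libraries. Among genes marked by H3K27me3 in the same library, MEA stood between the 57.1 and the 86.4 percentile of RPM per kb.

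The edges of the MEA domain differed between libraries. In leaf the island ran on past the gene to position 552000 of chromosome 1 in replicate 1 and to 552200 in replicate 2. In both apex t0 libraries, apex t2 replicate 1 and both inflorescence libraries it ended between 549400 and 549800, and in apex t2 replicate 2 at 551600. At the other side, over the neighbour AT1G02575, replicate 1 of each stage had a separate island of 400 to 800 bp, with 58 to 173 reads, while replicate 2 of each stage had 1 joined island that began at 543001 or 543201. The joined islands were thus seen in the deeper library of each stage.

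**Figure D2:**
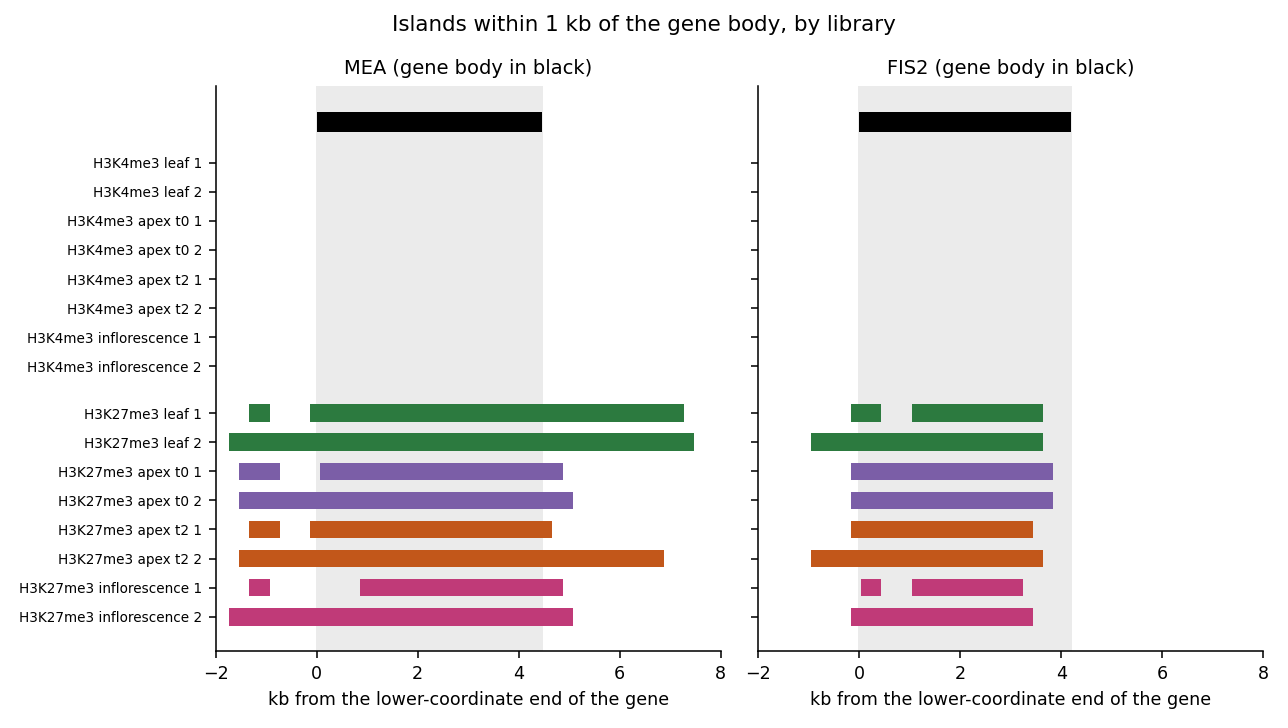
Islands within 1 kb of the bodies of MEA and FIS2 in the 8 H3K4me3 and 8 H3K27me3 libraries, drawn as bars coloured by stage, with the gene body in black and grey and distance in kb from the lower-coordinate end of the gene. Neither gene has an H3K4me3 island, and the MEA domain runs farthest to the right in the 2 leaf libraries.

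FIE, the WD40 subunit shared by the PRC2 complexes, had one of the steadiest H3K4me3 levels of the 10 loci. It was at 11.9 and 14.0 RPM per kb in leaf, 13.3 and 12.5 in apex t0, 14.0 and 13.5 in apex t2, and 11.6 and 13.1 in inflorescence. Both apex t2 libraries were just above both apex t0 and both inflorescence libraries. The standard deviation over the 8 libraries was 0.102 on the log2(RPM) scale. That was the 10.8 percentile among 14666 genes marked in all 8 libraries, whose median was 0.212. The FIE island of 600 to 1000 bp lay at the higher-coordinate end of the gene, within 400 bp of a long H3K27me3 domain over the neighbour GATA29, a GATA-type transcription factor gene, and AT3G20760. That domain was 6800 to 8000 bp long and carried between 1940 and 9234 reads. The gap between the 2 islands was 400 bp in 5 libraries (leaf replicate 2, both apex t2 libraries and replicate 1 of apex t0 and of inflorescence) and 200 bp in apex t0 replicate 2 and inflorescence replicate 2. In leaf replicate 1 the H3K27me3 island chr3:7252001-7260000 overlapped the H3K4me3 island by 400 bp and covered 12.4% of the FIE body. That made leaf replicate 1 the single library in which FIE counted as marked by H3K27me3, at 15.1 RPM per kb.

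H3K27me3 on CLF was present in 2 of the 8 libraries. In leaf replicate 1 an island at chr2:9955801-9960200 covered 83.1% of the gene with 703 reads against 1170 control reads, and its level was 52.5 RPM per kb. In inflorescence replicate 1 the island chr2:9955801-9959800 covered 75.5% with 319 reads against 1075 control reads, at 26.7 RPM per kb. The other 6 libraries, among them replicate 2 of both tissues, had no H3K27me3 island on the CLF body. The authors' fold over control was 2.37 in leaf, the 19.9 percentile of that library's islands, and 1.44 in inflorescence, the 0.2 percentile. In the same leaf library the longer FIS2 island had a similar fold of 2.395, the 20.5 percentile. The FIS2 level there, 46.4 RPM per kb, was below that of CLF. These are the 2 shallowest H3K27me3 libraries, and they share a control. Of 790 genes with H3K27me3 in exactly 2 libraries, 189 had it in exactly these 2, more than in any of the other pairs of libraries. Next came the 187 genes marked in leaf and inflorescence of replicate 2. Whether depth or the shared control sets the CLF islands was not tested. CLF was not marked in both replicates of any stage, so it was not in the test of H3K27me3.

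**Figure D3:**
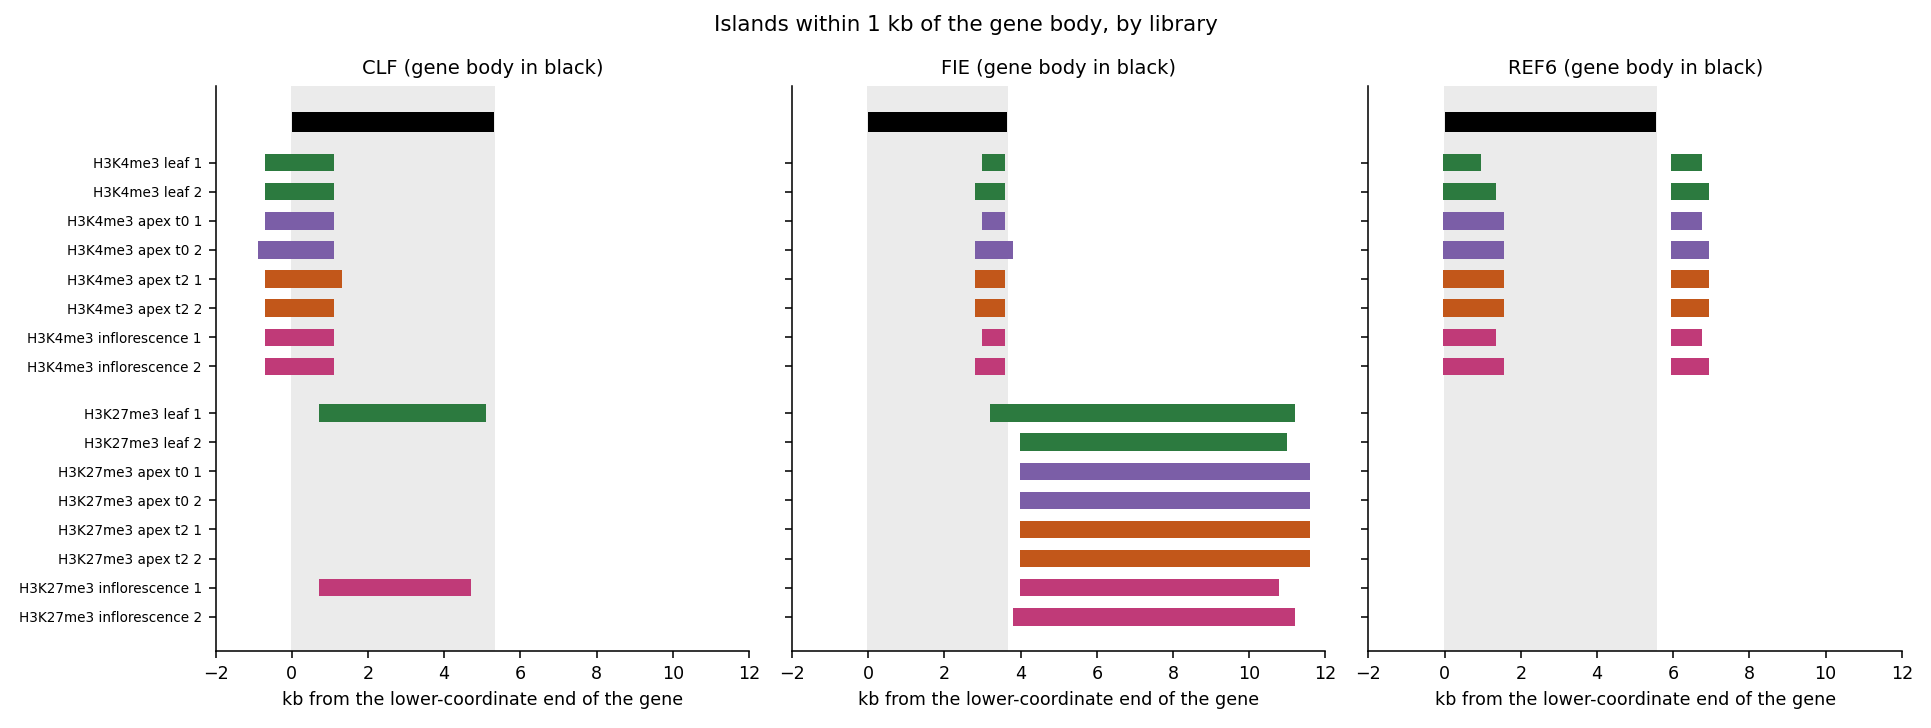
Islands within 1 kb of CLF, FIE and REF6 in each library, as bars coloured by stage, with the gene body in black and grey and distance in kb from the lower-coordinate end. CLF has an H3K27me3 island in replicate 1 of leaf and inflorescence, FIE lies beside an H3K27me3 domain in all 8 libraries, and the REF6 island is shorter in leaf than in apex t0 and t2.

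The zinc finger subunits repeated the contrast between plant body and seed. EMF2, which holds back flowering in the young plant, was at 6.68 and 8.92 RPM per kb of H3K4me3 in leaf, 7.87 and 8.48 in apex t0, 8.29 and 8.46 in apex t2, and 8.98 and 8.86 in inflorescence. Leaf replicate 1 was low, the other 7 libraries lay between 7.87 and 8.98, and both inflorescence libraries were above the 4 apex libraries. The EMF2 island also covered the neighbour AT5G51220 in all 8 libraries, so its reads were divided between both genes by length. A small H3K27me3 island lay beyond the higher-coordinate end of EMF2 in 7 libraries (182 to 1108 reads, leaf replicate 1 excepted). It reached at least 200 bp into the 1 kb beside the body in both inflorescence libraries and in apex t2 replicate 2.

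VRN2, the subunit that keeps FLC silent after winter cold, was at 7.96 and 7.13 RPM per kb of H3K4me3 in leaf, 5.11 and 6.84 in apex t0, 7.0 and 6.61 in apex t2, and 6.10 and 5.57 in inflorescence. Both leaf libraries were above all 6 other libraries, with the nearest value, apex t2 replicate 1, only just under the lower leaf library. In leaf replicate 1, the highest library, the island ran on over AT4G16835 and AT4G16840. The VRN2 level there is therefore a share by length of the 566 reads of the joined island. In the other 7 libraries those genes had an island of their own. The share of the body covered was 10.5% in inflorescence replicate 2 and between 15.7% and 19.2% in the others.

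FIS2, the zinc finger subunit of the seed complex, carried H3K27me3 at 46.4 and 54.5 RPM per kb in leaf, 59.2 and 65.4 in apex t0, 57.9 and 58.9 in apex t2, and 51.3 and 61.1 in inflorescence, a mean of 56.8 ± 5.96 (SD, n = 8). The leaf libraries were below both apex stages, apex t0 was above apex t2, and inflorescence overlapped with the other stages. FIS2 was covered less fully than MEA, from 62% in inflorescence replicate 1 to 91.5% in both apex t0 libraries. In leaf replicate 1 and inflorescence replicate 1 the domain was broken into 2 islands, at chr2:14992401-14993000 and chr2:14993601-14996200 in leaf, and in the other 6 libraries it was 1 island of 3600 to 4600 bp. Per kb covered, the FIS2 level ranged from 62.8 to 82.6 RPM, with inflorescence replicate 1 highest and the 2 leaf libraries (64.0 and 62.8) lowest. MEA was above FIS2 in each of the 8 libraries, per kb of body. Among genes marked by H3K27me3 in the same library, FIS2 stood between the 28.5 and the 46.6 percentile of RPM per kb.

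LHP1, the chromodomain reader of H3K27me3, had the highest H3K4me3 level per kb of the 8 marked loci. It was at 22.7 and 23.8 RPM per kb in leaf, 26.5 and 23.3 in apex t0, 26.3 and 24.1 in apex t2, and 28.8 and 24.4 in inflorescence. Replicate 1 was the higher library in apex t0, apex t2 and inflorescence and the lower in leaf, and the libraries of apex t2 and inflorescence were above both leaf libraries. The island chr5:5828801-5829800 had the same bounds in 7 libraries and was 200 bp shorter in leaf replicate 1. LHP1 also had an H3K27me3 domain as its neighbour, which began at 5831201 of chromosome 5 in both leaf libraries and apex t0 replicate 1, at 5830201 in apex t2 replicate 1 and at 5830001 in inflorescence replicate 2. It reached the LHP1 body in 0 of the 8 libraries.

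The 2 erasers, REF6 and ELF6, carried H3K4me3 in all 8 libraries and had no H3K27me3 island on the body in any. REF6, a demethylase that recognises its targets through zinc fingers, was at 9.93 and 13.2 RPM per kb of H3K4me3 in leaf, 16.4 and 16.9 in apex t0, 17.5 and 18.1 in apex t2, and 14.3 and 17.0 in inflorescence. Leaf replicate 1 was lowest, both leaf libraries were below the 6 others, and both apex t2 libraries were above the 6 others. The island began at position 17935201 of chromosome 3 in all 8 libraries and ended at 17936200 and 17936600 in leaf, at 17936800 in the 4 apex libraries, and at 17936600 and 17936800 in inflorescence. It covered 17.1% and 24.3% of the body in leaf and 27.9% in each apex library. Per kb covered, the level was 58.2 and 54.2 RPM in leaf and 58.7 to 65.0 in the 4 apex libraries, so leaf replicate 1 fell near the lowest apex library and leaf replicate 2 below it. Leaf replicate 1, with the shortest REF6 island, is also the shallowest H3K4me3 library. Leaf replicate 2, whose island was also shorter than those of the apex libraries, is the deepest. The part of depth in the island's length was not tested.

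ELF6, the related demethylase first known as a repressor of photoperiodic flowering, was at 9.33 and 8.58 RPM per kb of H3K4me3 in leaf, 8.09 and 9.46 in apex t0, 7.78 and 8.29 in apex t2, and 8.71 and 8.42 in inflorescence. Both apex t2 libraries were below both leaf and both inflorescence libraries, and the other pairs of stages overlapped. The ELF6 island also ran over the neighbour AT5G04238 in all 8 libraries, so the reads of that island were divided by length. The standard deviation of ELF6 over the 8 libraries was 0.0967 on the log2(RPM) scale, the 9.29 percentile among genes marked in all 8. SWN (0.305, the 71.8 percentile) and REF6 (0.291, the 69.3 percentile) varied most among the 8 loci. VRN2 was close to the median, at 0.207, and CLF, EMF2 and LHP1 lay between 0.115 and 0.142. For H3K27me3, MEA (0.184, the 28.7 percentile) and FIS2 (0.156, the 19.7 percentile) were below the median of 0.255 over 5886 genes marked in all 8 libraries.

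Ordered by mean H3K4me3 per kb over the 8 libraries, LHP1 (25.0 ± 2.03, SD) came first, then REF6 (15.4 ± 2.77), FIE (13.0 ± 0.904), CLF (12.2 ± 1.23), ELF6 (8.58 ± 0.58), EMF2 (8.32 ± 0.756), VRN2 (6.54 ± 0.914) and SWN (6.52 ± 1.45). LHP1 exceeded REF6 in 8 of 8 libraries, CLF exceeded ELF6 in 8 of 8, and EMF2 exceeded VRN2 in 7 of 8, each by more than the larger SD. The neighbours REF6 and FIE, FIE and CLF, ELF6 and EMF2, and VRN2 and SWN differed by less than the larger of their SDs. These levels are per kb of the whole body, and the islands sit at 1 end of each gene, so a long gene is diluted. Per kb covered by islands the order was LHP1 (mean 70.1 RPM, 63.4 to 78.4 over the 8 libraries), FIE (65.7, 53.3 to 80.5), REF6 (59.9, 54.2 to 65.0), ELF6 (57.5, 52.7 to 64.3), CLF (56.8, 51.4 to 69.0), EMF2 (53.5, 49.4 to 56.3), SWN (42.2, 31.5 to 57.6) and VRN2 (40.0, 26.6 to 53.0). On that scale FIE came before REF6, ELF6 before CLF and SWN before VRN2, the spread between loci was smaller, and FIE exceeded LHP1 in apex t0 replicate 1.

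The first comparison set the untreated apex against leaf. Limma was fitted to log2(RPM + 1) of all tested genes, 17588 for H3K4me3 and 8623 for H3K27me3, with stage alone in the model. The 8 H3K4me3-marked loci and the 2 H3K27me3-marked loci were among the genes tested. None of the 8 passed an adjusted p of 0.05 for H3K4me3, where 8.05% of all genes tested did, and neither MEA nor FIS2 passed for H3K27me3, where 9.66% did. At an unadjusted p under 0.05 limma gave 1 of the 8, REF6, beside 23.5% of all genes tested, and 0 of the 2, beside 22.4%. REF6 was higher in apex t0 by 0.53 ± 0.16 (log2 difference ± SE, adjusted p = 0.118, limma), with both apex libraries above both leaf libraries. It was the single locus of the 8 with that order, which 22.6% of all genes tested showed. CLF, SWN and VRN2 had the opposite order, 3 of 8 loci against 24.6% of all genes. The log2 differences of the 8 loci ran from -0.50 ± 0.28 (SWN, adjusted p = 0.362, limma) to that of REF6, with a median of -0.02 beside -0.0091 over all genes tested.

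The REF6 call depended on the fit. With the replicate number as a block, REF6 passed in limma (0.53, adjusted p = 0.0394). So did 2393 of the 17588 genes tested, against 1415 without the block. Without leaf replicate 2 the REF6 difference was 0.74, with the shallowest library as the lone leaf sample. Over 18 alternatives its difference ranged from 0.36 to 0.74 and its adjusted p from 0.0293 to 0.321.

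MEA and FIS2 differed in sign in H3K27me3 between apex t0 and leaf. MEA was at -0.29 ± 0.15 (log2 difference ± SE, adjusted p = 0.352, limma), with both apex t0 libraries below both leaf libraries. FIS2 was at 0.31 ± 0.14 (adjusted p = 0.273, limma), with both apex t0 libraries above both leaf libraries. Of all genes tested for H3K27me3, 24.1% had the order of MEA and 29.9% that of FIS2. The difference between the 2 genes was not tested, and neither passed in any of 19 alternatives, with adjusted p from 0.16 to 0.718 for MEA and from 0.128 to 0.666 for FIS2. FIE entered the H3K27me3 test in 3 alternatives. It was not called with genes marked in any library or with 1 kb on either side of the body (lowest adjusted p of the tested loci 0.334 and 0.167, limma). Without leaf replicate 2 it was lower in apex t0 than in leaf. The lone leaf library was then leaf replicate 1, which holds the island edge described above.

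**Figure D4:**
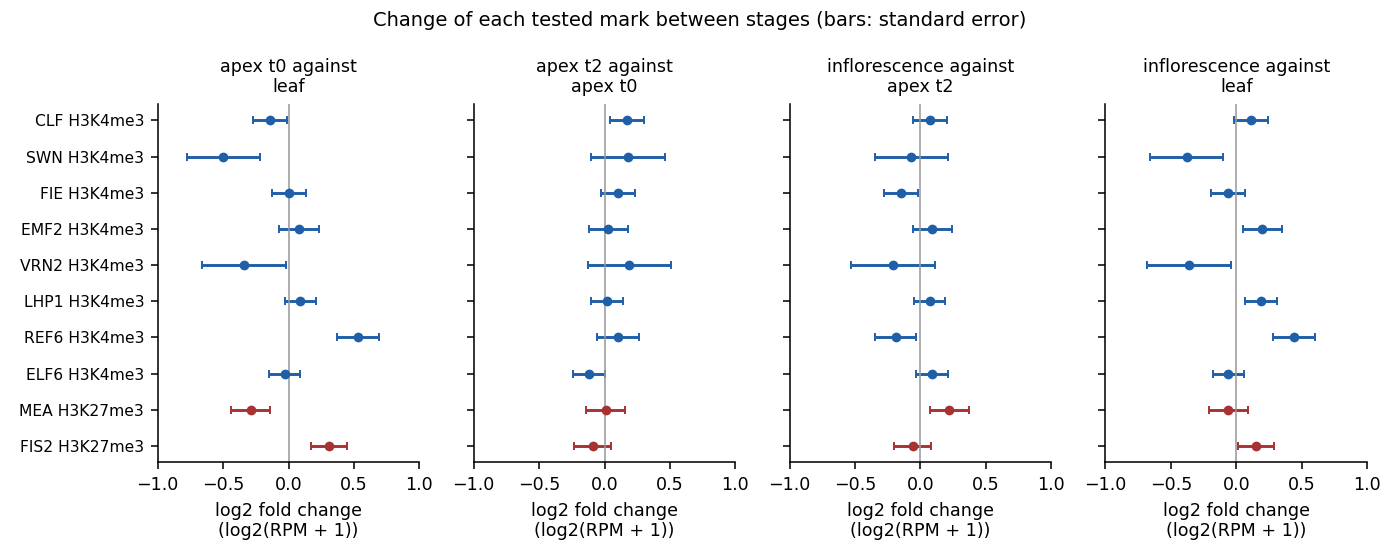
Log2 difference of each tested locus and mark in 4 comparisons, on the log2(RPM + 1) scale, with bars of 1 standard error from limma. Blue points are H3K4me3 and red points H3K27me3. Of the 8 H3K4me3 loci REF6 lies farthest above 0 in apex t0 against leaf (0.53), and apex t2 against apex t0 stays between -0.12 and 0.19.

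Dexamethasone for 2 days, which starts flower formation in the apices, left all 10 loci without a call. The log2 differences of apex t2 against apex t0 ranged from -0.12 (ELF6) to 0.19 (VRN2) for H3K4me3, and were 0.01 ± 0.15 for MEA and -0.09 ± 0.14 for FIS2 in H3K27me3. At an unadjusted p under 0.05 limma gave 0 of the 8 and 0 of the 2. Over all genes tested this comparison called 0% for H3K4me3 and 0% for H3K27me3, with 156 (0.887%) and 35 (0.406%) genes at an unadjusted p under 0.05, so it had no called genes against which the loci could be read. With the standard errors at 0.12 to 0.32 for the 8 loci, changes of the size of these errors were not detectable with 2 replicates.

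Inflorescence against apex t2 gave 0 calls among the 8 loci, where 1.13% of all genes passed for H3K4me3, and 0 of 2 for H3K27me3, where 3.27% passed (limma). At an unadjusted p under 0.05 it gave 0 of the 8 and 0 of the 2, beside 7.05% and 8.79% of all genes. Leaving out single libraries brought the calls over all genes to between 0 and 90 for H3K4me3 and between 0 and 1072 for H3K27me3. The 8 H3K4me3 differences ran from -0.21 (VRN2) to 0.09 (EMF2 and ELF6). MEA was at 0.22 ± 0.15 (adjusted p = 0.766, limma), with both inflorescence libraries within or above the range of apex t2, and FIS2 was at -0.06 ± 0.14 (adjusted p = 0.976), a sign that turned to 0.06 without inflorescence replicate 1.

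The last comparison set wild-type inflorescence against wild-type leaf, which share their genotype and their control. Again 0 of the 8 loci passed for H3K4me3, against 4.06% of all genes, and 0 of 2 for H3K27me3, against 5.1%. REF6 had the lowest unadjusted p, the single one of the 10 under 0.05 in limma (1 of 8, beside 14.4% of all genes, and 0 of 2, beside 11.7%). Its log2 difference was 0.44 ± 0.16 (adjusted p = 0.296, limma). In REF6 and LHP1, 2 of the 8 loci, both inflorescence libraries were above both leaf libraries, as in 18.3% of all genes tested. SWN and VRN2 had the opposite order, at -0.38 ± 0.28 and -0.36 ± 0.32, and the share of all genes with that order was not counted. MEA was at -0.06 ± 0.15 (adjusted p = 0.952, limma) and turned to 0.09 without leaf replicate 1 and to 0.06 without inflorescence replicate 1. FIS2 was at 0.15 ± 0.14 (adjusted p = 0.656, limma). FIE was again lower in H3K27me3 where leaf replicate 2 was left out, with leaf replicate 1 as the lone leaf library.

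The wider Polycomb and trithorax machinery, in lists chosen with earlier results of these data known, showed the same 2 main states. Of 38 further genes in 4 lists, 28 (73.7%) had H3K4me3 in all 8 libraries and no H3K27me3 island, beside 45.5% of all genes, and 4 (10.5%) had H3K27me3 in all 8 and no H3K4me3, beside 14.5%. Those 4, named after their values were seen, were VIN3 (95.8 RPM per kb of H3K27me3), VEL2 (29.2), VEL3 (83.8) and BMI1C (78.9). VIN3 is the PHD finger protein induced by winter cold that works with VRN2, VEL2 and VEL3 are its relatives, and BMI1C belongs to the ring finger proteins of PRC1. The relatives VRN5 and VEL1 were in the opposite state, with H3K4me3 of 33.7 and 16.3 RPM per kb in the mean and no H3K27me3 island. MSI1, the histone-binding partner of FIE, was at 35.0 RPM per kb of H3K4me3, above LHP1, and MSI4 was at 15.1.

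EMF1 and ULT1 carried both marks in all 8 libraries, a state of 1.66% of all genes and of 0 of the 10 loci. EMF1, a plant-specific Polycomb partner, was at 8.72 RPM per kb of H3K4me3 and 77.6 of H3K27me3. ULT1, a SAND-domain protein that opposes Polycomb at floral genes, was at 24.3 and 60.8. ULT1 ranged from 5.26 to 31.8 RPM per kb in H3K4me3 across libraries, and in apex t0 against leaf its H3K4me3 was at 1.39 ± 0.61 and its H3K27me3 at -0.95 ± 0.42 (log2 difference ± SE, adjusted p = 0.239 and 0.28, limma). Its relative ULT2 had H3K27me3 in all 8 libraries and H3K4me3 in 2. The PRC1 ring protein RING1B had H3K4me3 in 7 of 8 libraries, the missing one being a leaf library. None of the tested genes of the 4 lists was called in any of the 4 comparisons for either mark (limma, adjusted p under 0.05). At an unadjusted p under 0.05 in apex t0 against leaf were 4 of 33 genes tested for H3K4me3 (PWO1, VAL1, VAL3 and ATX1) and 1 of 7 for H3K27me3 (VEL2), shares below the 23.5% and 22.4% of all genes. In inflorescence against leaf there were 2 of 33 (PWO1 and VAL1) and 1 of 7 (BMI1C), beside 14.4% and 11.7%, and in the other comparisons 0 genes.

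**Figure D5:**
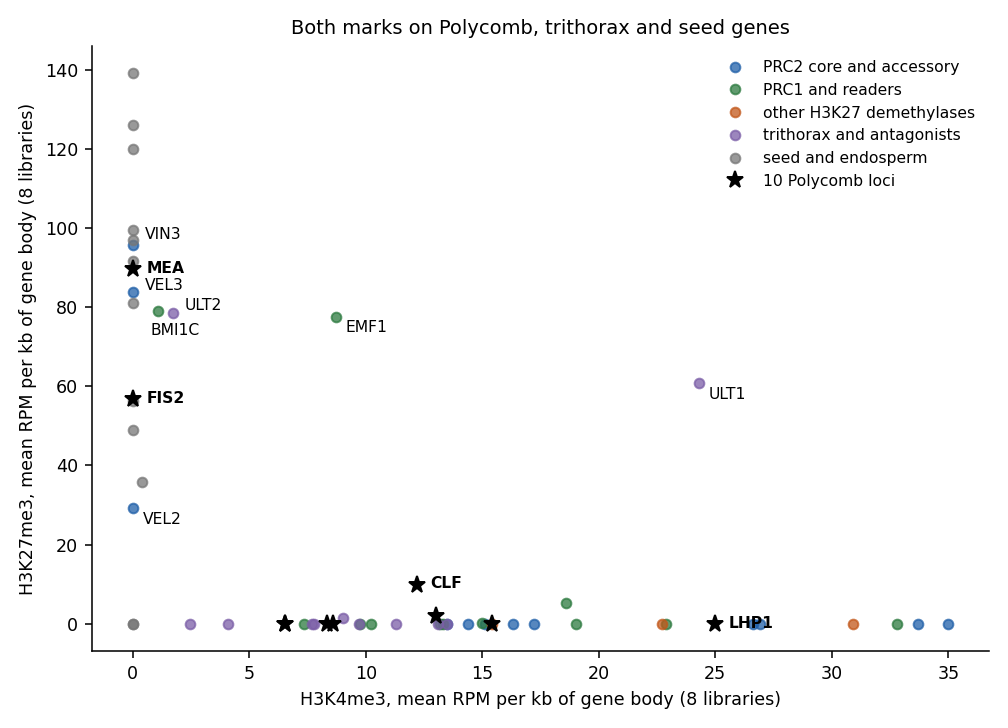
Mean H3K4me3 and mean H3K27me3 over 8 libraries each, in RPM per kb of gene body on linear axes, for the 10 loci (black stars), 38 further Polycomb and trithorax genes and 12 seed genes, coloured by list. Most points lie on 1 of the 2 axes, MEA and FIS2 lie on the H3K27me3 axis among the seed genes, and EMF1 and ULT1, with both marks in all 8 libraries, lie off both. Some other points also lie off both, CLF among them, at 12.2 RPM per kb of H3K4me3 and 9.9 of H3K27me3.

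Most genes of a list from the seed programme were in the state of MEA and FIS2. The list was chosen with earlier results of these data known, so its shares only describe it. Of 12 seed and endosperm genes, 10 had H3K27me3 in all 8 libraries (83.3%, beside 21.4% of all genes), 9 of them with no H3K4me3 in any library, and 0 had H3K4me3 in all 8. PHE1, an imprinted MADS-box gene repressed by the seed PRC2, was at 91.6 RPM per kb of H3K27me3, close to MEA, and FWA, an imprinted homeodomain gene, at 56.4, close to FIS2. The embryo regulators LEC1 (81.0), LEC2 (99.4), FUS3 (120) and ABI3 (139) were between 81.0 and 139, ZOU was lower than FIS2 at 49.0, and IKU2 was the lowest of the 10 marked genes at 35.8. AGL62 and AGL36, endosperm MADS-box genes, had neither mark in any of the 16 libraries. No gene of this list was called in H3K27me3 in any comparison. At an unadjusted p under 0.05 limma gave 1 of the 10 tested in apex t0 against leaf, beside 22.4% of all genes tested. In inflorescence against leaf it gave 1 of the 10, beside 11.7%, and in the other comparisons 0. The gene was YUC10 each time, at 0.44 ± 0.16 (adjusted p = 0.195, limma) and at 0.49 ± 0.16 (adjusted p = 0.319, limma).

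Over all 16 libraries the genes whose levels were most like those of MEA were AT3G52550, PRR1 and PGAZAT, with a mean absolute difference of 0.0242, 0.0419 and 0.043 on the log2(RPM per kb + 1) scale. For FIS2 they were AT5G44310 (0.0339), AGL46 (0.0375) and AT3G45940 (0.048). Likeness here is in level and stage profile of both marks, and 8 of the 16 values were 0 in each of these genes and in MEA and FIS2.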

How the data were processed

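Per the submitters' processing notes, the tools were SICER 1.1, bedtools 2.17.0-97, Picard 1.93, BWA 0.6.2-r126, SAMtools 0.1.19 and CASAVA 1.8.2, with TAIR10. The settings for calling islands are not given in the sources used here. The authors deposited 1 island table per library with reads, control reads, fold and p-values, and the other columns used were island bounds. The 6 input samples were not analysed here.

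Genes came from a RefSeq table of TAIR10.1. In 120 of 121 bins of 1 Mb, H3K4me3 islands overlapped genes most with no offset, among 7 offsets up to 2000 bp. A gene with 200 bp or more of its body under islands was called marked. Its reads were the island reads times the island's share within the body, as RPM scaled by trimmed means (30% of log ratios, 5% of means). Genes marked in both replicates of a stage were tested with limma 3.58.1 (R 4.3.3, statmod 1.5.0; mean trend, robust) on log2(RPM + 1) over the 8 libraries of a mark, two-sided, with Benjamini-Hochberg adjustment over all genes tested. The script was tested on simulated data. With 2 replicates a stage and 4 residual degrees of freedom, p-values measure the spread between these libraries, part of which may be technical. No total library depth was used, so no counting interval is given.

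The replicate number marks a shared library kit, sequencer and antibody lot, and deviations of same-numbered libraries correlated at 0.155 to 0.449 in all pairs of stages, so the numbers pair the libraries. The reported calls come from the fit with stage alone, which leaves this pairing out. The fit with a replicate block was an alternative, and it called REF6 in apex t0 against leaf (H3K4me3, adjusted p = 0.0394, limma). Members, lists and tests were chosen with earlier results of these data known. All 10 members are named. Of the wider lists, called genes were to be named, and other names were chosen after their values were seen. The 3 genes of nearest pattern are given for MEA and FIS2.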

Additional observations from a re-analysis of the deposited data

How the results depend on the processing

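Of 196 counts of loci under alternatives, 186 were within 1.5 times the reported count. The replicate block gave 1 H3K4me3 call in apex t0 against leaf (REF6) in place of 0, and changed no other call among the 10 loci. Over all genes it gave 2393 calls in that comparison in place of 1415. Leaving out single libraries gave 0 to 1 calls in apex t0 against leaf for each mark, and in inflorescence against leaf for H3K27me3. The 1 call came each time without leaf replicate 2, which leaves leaf replicate 1 as the lone leaf library. Asking islands to cover 0.5 of the body left 0 H3K4me3-marked loci in each of the 4 stages, since these islands sit at gene ends, and no locus to test. For H3K27me3, leaving out replicates gave 2 to 4 marked loci in leaf, and counting 1 kb on either side gave 4 in inflorescence (MEA, FIS2, FIE and EMF2). Signs turned for SWN in H3K4me3, apex t0 against leaf (0.09 with 1 kb on either side), for MEA in inflorescence against leaf (0.09 without leaf replicate 1, 0.06 without inflorescence replicate 1, and -0.20 to 0.09 over single libraries left out) and for FIS2 in inflorescence against apex t2 (0.06 without inflorescence replicate 1, and -0.19 to 0.06 over single libraries); the cause was not tested. Over all genes, H3K4me3 calls in apex t0 against leaf numbered 1415, between 1039 and 2393 across settings and between 96 and 3044 without single libraries. The other counts over all genes ranged, across settings, from 23 to 331 (H3K4me3, inflorescence against apex t2; 199 reported), 465 to 969 (H3K4me3, inflorescence against leaf; 714), 578 to 1225 (H3K27me3, apex t0 against leaf; 833), 57 to 352 (inflorescence against apex t2; 282) and 299 to 556 (inflorescence against leaf; 440). Without single libraries these 5 counts ranged from 0 to 90, 66 to 1806, 612 to 2065, 0 to 1072 and 335 to 1646. Apex t2 against apex t0 gave 0 to 35 and 0 to 20 across settings, and 0 without any single library. Depth differs between replicates, and its part in which islands were called was not tested.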
